A study of Mus musculus with 25 samples.

Results

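ASZ001 cells treated with CCG-1423 were compared directly with ASZ001 cells treated with vismodegib, to ask how far the transcriptomes under the 2 compounds differ and in which genes. The comparison uses 6 of the 25 samples of the series, the 3 RNA libraries labelled CCG-1423 and the 3 labelled vismodegib, chosen by their treatment label, and the 3 vehicle libraries of the same line are given beside them. The other 16 samples, from tumours, were not analysed here. ASZ001 is a line of mouse basal cell carcinoma cells that the labels call resistant, and it is 1 line, so that nothing here speaks for other tumours. Vismodegib inhibits Smo and CCG-1423 inhibits signalling by SRF and its actin-regulated coactivators MRTF. The sources used here give no dose, treatment time or solvent, so the compounds are compared as they were used and not at a matched dose. The labels do not say whether the libraries of a group came from separate cultures, and the p-values then measure only the spread between these libraries, which may be technical.

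The Hedgehog pathway starts at the receptor Ptch1, which holds the membrane protein Smo inactive. When Smo is active, the Gli transcription factors switch on target genes that include Gli1 and Ptch1 themselves, and this output drives basal cell carcinoma. SRF binds DNA elements called CArG boxes together with partner proteins: MRTF, encoded by Mkl1 and Mkl2, which enters the nucleus when free actin is low and switches on actin and other cytoskeletal genes, and the ternary complex factors, such as Elk1, which respond to ERK and switch on immediate early genes. The integrated stress response is a separate program in which phosphorylation of the translation factor eIF2 raises the transcription factor Atf4, which acts with C/EBP proteins on C/EBP-ATF response elements of amino acid and stress genes.

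The promoter windows that carry these elements are shown because the genes behind them, given further on, were the ones that set the compounds apart or did not. They come from the RefSeq promoter table of the build GRCm38.p6, which holds 250 bases before to 50 bases after each gene's start and has an entry for 9593 of the 12775 genes tested. Capitals mark the match, and no window passes the gene's start. The first 5 are SRF or its targets with a CArG box, searched by that name on both strands.
Srf: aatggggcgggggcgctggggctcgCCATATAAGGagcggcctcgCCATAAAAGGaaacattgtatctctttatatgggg
Actg1: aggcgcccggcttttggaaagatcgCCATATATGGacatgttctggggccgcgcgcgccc
Vcl: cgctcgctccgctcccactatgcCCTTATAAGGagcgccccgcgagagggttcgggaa
Myl9: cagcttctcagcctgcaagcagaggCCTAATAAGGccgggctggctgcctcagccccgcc
Fhl2: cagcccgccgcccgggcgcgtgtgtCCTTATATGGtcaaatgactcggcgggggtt
The next 6 are genes of the integrated stress response with a C/EBP-ATF response element, searched as TGATGNAA on both strands.
Atf3: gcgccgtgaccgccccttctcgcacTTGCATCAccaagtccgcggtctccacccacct
Nupr1: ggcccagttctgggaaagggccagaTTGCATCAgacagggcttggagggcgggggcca
Chac1: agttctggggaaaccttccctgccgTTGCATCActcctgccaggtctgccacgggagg
Fgf21: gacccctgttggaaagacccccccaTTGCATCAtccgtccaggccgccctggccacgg
Asns: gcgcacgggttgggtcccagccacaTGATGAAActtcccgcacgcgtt
Slc7a11: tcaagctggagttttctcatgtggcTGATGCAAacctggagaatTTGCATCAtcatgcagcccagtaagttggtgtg
In GRCm38.p6 the windows lie at chr17:46556190-46556269 (minus strand) for Srf, chr11:120348551-120348610 (minus strand) for Actg1, chr14:20929148-20929205 (plus strand) for Vcl, chr2:156775278-156775337 (plus strand) for Myl9 and chr1:43163962-43164017 (minus strand) for Fhl2. Those of the stress genes lie at chr1:191183411-191183468 (minus strand) for Atf3, chr7:126625548-126625605 (minus strand) for Nupr1, chr2:119351024-119351081 (plus strand) for Chac1, chr7:45615597-45615654 (minus strand) for Fgf21, chr6:7693210-7693257 (minus strand) for Asns and chr3:50443628-50443704 (minus strand) for Slc7a11. A CArG box was found in the promoters of 7 of 33 SRF target members (21.2%), against 1.5% of the 9593 promoters of tested genes. A C/EBP-ATF element was found in 10 of 35 integrated stress response members (28.6%), against 2.69%. Both lists were made of genes named as targets or members of these pathways. These shares therefore describe the lists and say nothing of a difference between the compounds. Among genes at least 2-fold higher with CCG-1423, 5.14% of 1129 promoters held a C/EBP-ATF element, and among those at least 2-fold lower 3.24% of 1388 did. The same shares for the CArG box were 1.68% and 1.37%. The Gli consensus TGGGTGGTC, on both strands, was found in 0 of 6 Hedgehog promoters and in 0.292% of all tested genes' promoters. A match is a run of letters and no proof of binding, and a gene can hold elements outside this window.

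Each library held 30455530 to 41040633 reads at genes in the 6 libraries compared and 32192090 to 44017757 in the vehicle libraries. Libraries of 1 group differed by more than counting noise, with a chi-square over its degrees of freedom of 2.27 to 3.14 for pairs of vismodegib libraries and 8.45 to 40.9 for pairs of CCG-1423 libraries. Counting alone gives about 1. The value sums over all genes, so a few abundant transcripts can weigh heavily in it. Rn45s, described below, took 6.62 to 10.4% of reads in the CCG-1423 libraries. Log2 levels correlated at 0.994 to 0.996 between CCG-1423 libraries and at 0.996 between vismodegib libraries. All 10 keratinocyte markers were measured, and Krt5 and Krt14 were among the most abundant transcripts. Summed over the 10 markers the level was 1337550 to 1354940 normalized counts with vismodegib and 370686 to 381905 with CCG-1423. Krt5 and Krt14 made up most of the vismodegib sum. Singly, 9 of the 10 markers were lower with CCG-1423, 5 of them at least 2-fold, and 1 was at least 2-fold higher. Over all genes tested 42.4% were lower, 15.1% at least 2-fold lower and 12.2% at least 2-fold higher. Of the markers of fibroblasts, immune cells, endothelium and melanocytes, 11 of 27 passed the filter on low values. Summed by cell type these gave at most 205 normalized counts for fibroblasts and 38.5 for melanocytes in any library. Immune markers summed to 388 to 465 with vismodegib and 782 to 948 with CCG-1423, nearly all of it Cd68, a lysosomal protein, and endothelial markers to 669 to 795 and 270.4 to 320, nearly all of it Pecam1. The part of other cells in the results was not tested.

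The vismodegib libraries stood apart in Rn45s, the precursor of ribosomal RNA. It took 1.39 to 1.58% of reads with vismodegib, 6.62 to 10.4% with CCG-1423 and 5.81 to 6.70% with vehicle. Lars2, a mitochondrial tRNA synthetase gene, followed the same order, with 552284, 447411 and 325367 normalized counts with CCG-1423 and 67146, 74769.8 and 71646 with vismodegib. The nuclear RNA Malat1 had 62105, 54787 and 46790.5 with CCG-1423, 13979, 11027 and 11959 with vismodegib and 25001, 29089.6 and 29133 with vehicle. All 3 vismodegib libraries were thus below all others for these transcripts, and the part of this difference between library groups in other results was not tested. Scaling by total reads without Rn45s and Lars2 gave 10877 genes past the threshold in place of 10839.

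**Figure D1:**
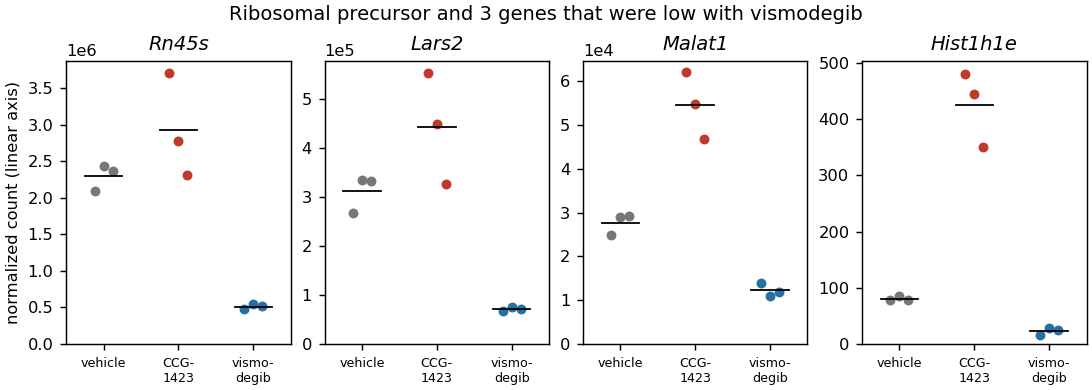
Normalized counts (linear axis, starting at 0) of Rn45s, Lars2, Malat1 and the histone gene Hist1h1e in the 9 libraries; points are libraries and bars are group means. The 3 vismodegib libraries lie below the other 6 in each panel, and Hist1h1e, with 351 to 481 normalized counts, was highest with CCG-1423.

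The 2 compounds left ASZ001 cells in widely different states, and the state under vismodegib was close to that under vehicle. On the first principal component of the 9 libraries, which took 90.5% of the variance, CCG-1423 libraries scored 82.7 to 86.5, vismodegib libraries -43.9 to -41.3 and vehicle libraries -43.4 to -40.2. The second component took 2.24% and set vismodegib apart from vehicle. Across the 12775 genes tested, the correlation of log2 levels was 0.916 to 0.922 between a CCG-1423 and a vismodegib library and 0.994 to 0.995 between a vismodegib and a vehicle library, with genes that are not independent and a size factor shared by all genes of a library.

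**Figure D2:**
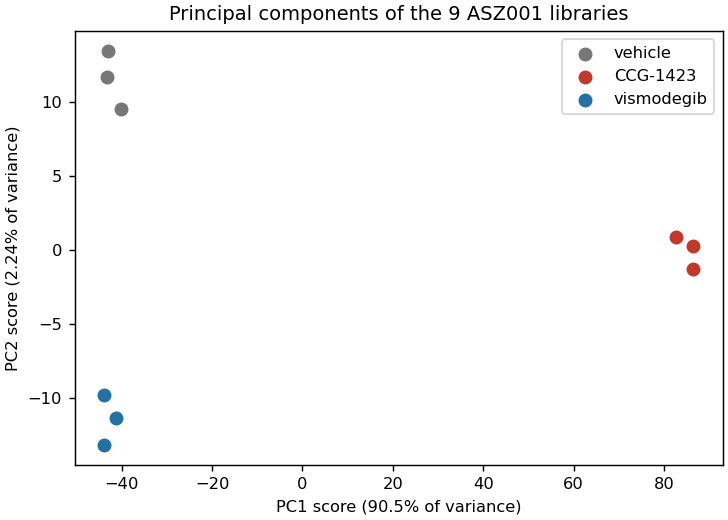
Scores of the 9 ASZ001 libraries on the first 2 principal components of log2(normalized count + 1); each point is 1 library. CCG-1423 libraries score 82.7 to 86.5 on the first component, and vismodegib and vehicle libraries all score -43.9 to -40.2.

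Of 12775 genes tested, 10839 passed an adjusted p of 0.05 (84.8%), 5420 higher with CCG-1423 (42.4%) and 5419 lower (42.4%). This even split depends on the scaling, with 5111 higher and 5689 lower with total-read scaling and 5899 and 4978 when Rn45s and Lars2 were left out of the totals. Of these, 3494 differed at least 2-fold (27.4%), 1564 higher (12.2%) and 1930 lower (15.1%). At 4-fold or more there were 444 higher and 566 lower genes, and at 16-fold or more 62 and 41. The median log2 difference over all genes tested, CCG-1423 minus vismodegib throughout, was 0.01, with a 5th percentile of -1.90 and a 95th percentile of 1.66. Most genes passed, so a passing gene says little by itself, and the sizes and the 2-fold counts carry the comparison. The counts of list members below are to be read beside these shares over all genes. In RNA from whole cultures, fewer cells of a type and less RNA per cell cannot be told apart.

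**Figure D3:**
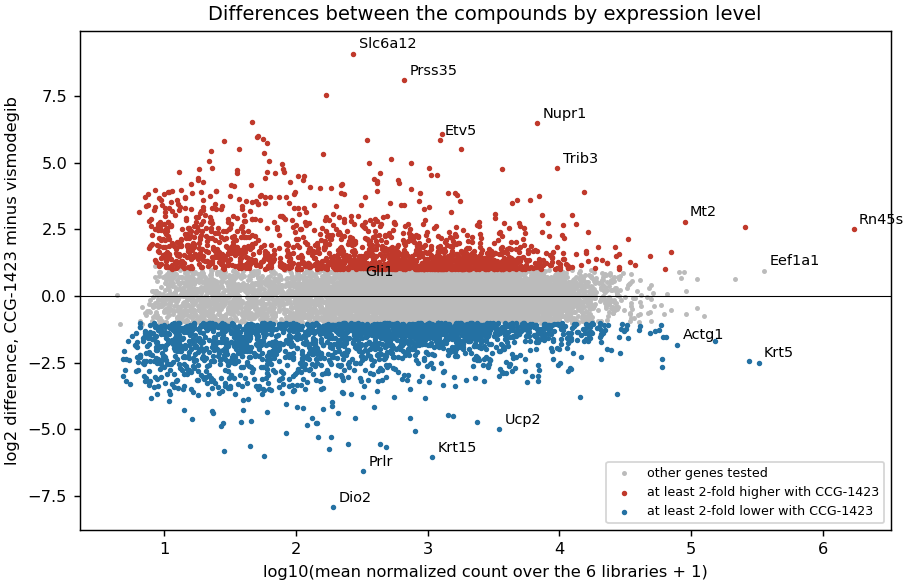
Log2 difference (CCG-1423 minus vismodegib) of the 12775 genes tested against their mean normalized count over the 6 libraries (log10 axis); red and blue points passed and differed at least 2-fold. The highest point is Slc6a12, the lowest is Dio2, and Krt5 (-2.50) is an abundant gene among the lower ones.

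Where did vehicle stand for the genes that set the compounds apart? Of the 3494 genes that differed at least 2-fold, the vehicle mean lay nearer to vismodegib for 3451 and nearer to CCG-1423 for 43. With CCG-1423, 85.3% of genes passed against vehicle, and with vismodegib 5.5% did (703 genes, 1 of them at least 2-fold higher and 34 at least 2-fold lower). These 2 comparisons share the vehicle libraries, and their values are given side by side below for that reason. The difference between the compounds was thus mostly a difference between CCG-1423 and both other groups.

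Gli1, the transcription factor and standard readout of the Hedgehog pathway, was an exception. It had 409, 372 and 319 normalized counts in the 3 CCG-1423 libraries, 229, 272 and 240.1 in the vismodegib libraries and 1216, 1304 and 1100.1 in the vehicle libraries. The groups do not overlap: both compounds were far below vehicle, and vismodegib was the lowest. The log2 difference between the compounds was 0.56 ± 0.09 (SE, n = 3 against 3, limma adjusted p = 3.5e-05), beside -1.72 ± 0.09 for CCG-1423 and -2.28 ± 0.09 for vismodegib against vehicle. Ptch1, the receptor and a Gli target, did not go with Gli1. It had 494, 655 and 596 normalized counts with CCG-1423, 289.7, 278 and 268 with vismodegib and 323, 305 and 332 with vehicle, so that CCG-1423 was above both other groups. Its log2 difference between the compounds was 1.05 ± 0.09 (adjusted p = 1.8e-08), while vismodegib against vehicle gave -0.20 ± 0.09 (adjusted p = 0.25).

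Ligands and receptors of the pathway differed in both directions. No ligand passed the filter on low values: Shh is listed at 0 in all 9 libraries, and Ihh and Dhh averaged under 2 normalized counts in every group. Gas1, a coreceptor for Hedgehog ligands, had 2142, 1859 and 1815 normalized counts with CCG-1423 and 25984, 27519.5 and 27406 with vismodegib. No library of one compound came near those of the other, and the log2 difference of -3.80 ± 0.05 was the largest of the 23 pathway members tested. Boc, another coreceptor, was higher with CCG-1423 (1.66 ± 0.06), and Cdon, its relative, was lower (-0.37 ± 0.04).

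Of the 9 transducers 3 were higher with CCG-1423, 4 lower and 2 did not pass, 1 lower member differed at least 2-fold, and their median log2 difference was 0.04, or -0.003 with total-read scaling. Smo, the target of vismodegib, had 6571, 6306 and 6288 normalized counts with CCG-1423 and 8847, 9075 and 9113 with vismodegib, a log2 difference of -0.50 ± 0.03. Sufu, which restrains Gli proteins, was lower with CCG-1423 by a similar amount (-0.36 ± 0.04). Evc, a ciliary partner of Smo, was lower (-1.16 ± 0.05) and its neighbour and partner Evc2 higher (0.72 ± 0.04). Gpr161, an inhibitory ciliary receptor, had 0.53 ± 0.06. The kinesin Kif7 (0.09 ± 0.07, adjusted p = 0.2) and the kinase Csnk1a1 (0.04 ± 0.03, adjusted p = 0.22) did not pass.

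Among the Gli factors, Gli3, mostly a repressor of the pathway, had 6694, 6867 and 6368 normalized counts with CCG-1423 and 2796, 2706 and 2652 with vismodegib (1.29 ± 0.04). Gli2, the main activator, had 764, 926 and 866 and 799.6, 813 and 841, and the groups overlap (0.05 ± 0.06, adjusted p = 0.41), although it passed without CCG-1423 replicate 1 (0.13, adjusted p = 0.021). Of the target genes, Ccnd1, which encodes cyclin D1, had 4289, 3762 and 3956 normalized counts with CCG-1423, 1325, 1124 and 1168 with vismodegib and 1835, 1683 and 1693 with vehicle. Like Ptch1 it was above vehicle with CCG-1423 (1.20 ± 0.06), and unlike Ptch1 it passed below vehicle with vismodegib (-0.53 ± 0.06). Bcl2, which protects from cell death, was higher with CCG-1423 (0.53 ± 0.06), while Ccnd2 (-0.93 ± 0.05), the Wnt antagonist Sfrp1 (-0.93 ± 0.05) and the transcription factor Sox9 (-0.17 ± 0.04) were lower. Sox9 no longer passed with quantile normalization (-0.07, adjusted p = 0.082). Of the 31 listed pathway genes 23 were tested, 9 were higher and 10 lower with CCG-1423, and 4 higher and 2 lower ones differed at least 2-fold. Over all genes tested 42.4% were higher, 42.4% lower, 12.2% at least 2-fold higher and 15.1% at least 2-fold lower. The counts of higher and lower pathway genes thus lie near those shares. The median log2 difference of the 23 was 0.04, beside 0.01 over all genes, and it was -0.003 with total-read scaling.

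**Figure D4:**
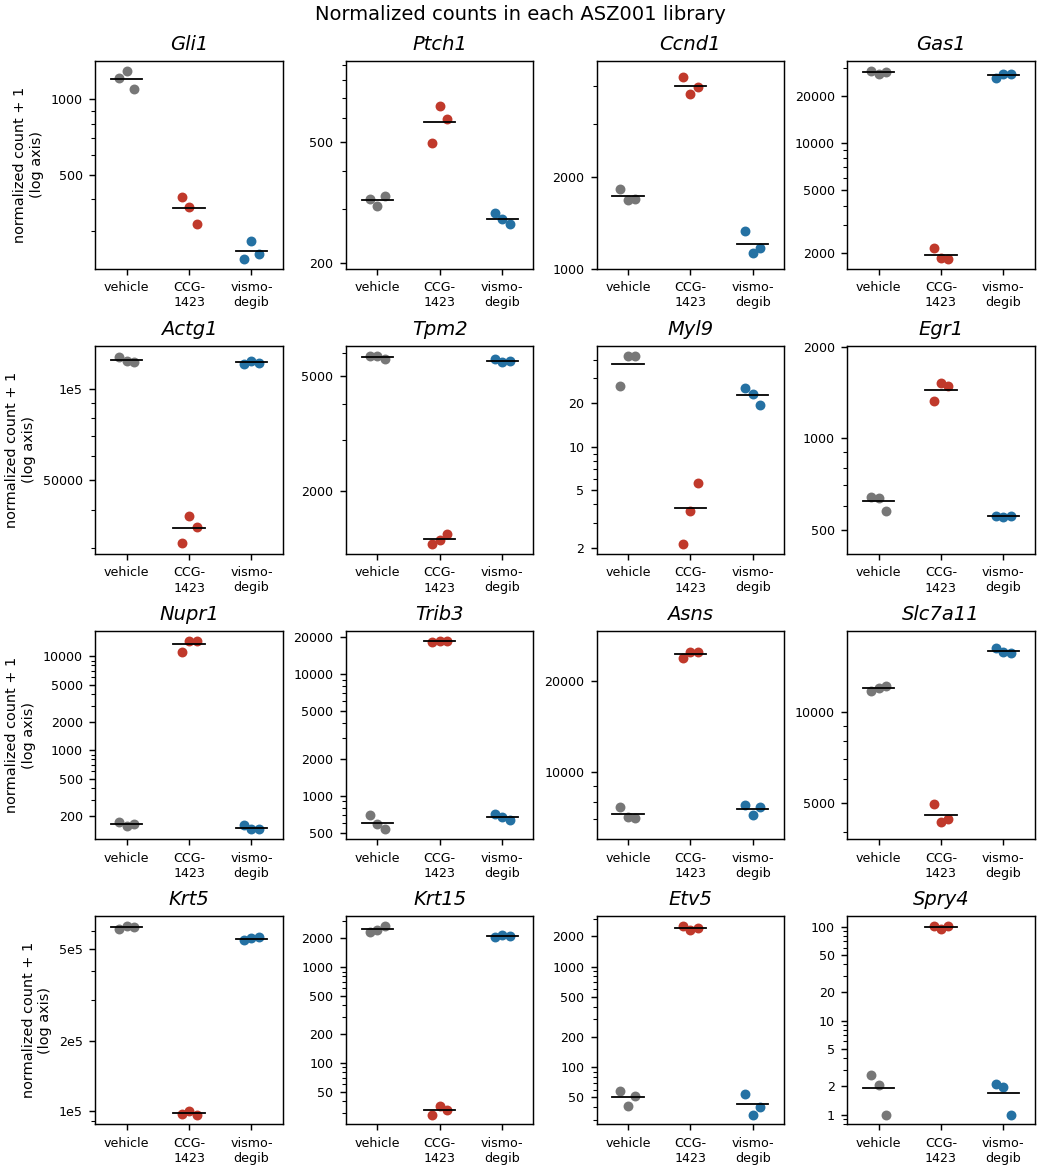
Normalized counts plus 1 (log axes, each panel with its own range) of 16 genes in the 9 libraries; points are libraries and bars group means. Gli1 is the panel in which both compounds lie far below vehicle; in most others vismodegib lies with vehicle, as for Nupr1 at 143 to 161 against 154 to 172 normalized counts.

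Cytoskeletal genes of the SRF and MRTF set were mostly lower with CCG-1423 than with vismodegib, and immediate early genes of the same set were mostly higher. Srf itself had 2879.7, 2751 and 2794 normalized counts with CCG-1423 and 2533, 2395 and 2596 with vismodegib, a log2 difference of 0.16 ± 0.04, although its promoter, shown above, holds 2 CArG boxes. Mkl1, which encodes MRTF-A, was slightly higher (0.35 ± 0.03) and Mkl2, which encodes MRTF-B, slightly lower (-0.15 ± 0.04), a call lost with total-read scaling without Rn45s and Lars2 (-0.08, adjusted p = 0.069). Myocd, the muscle coactivator, is listed at 0 in all libraries. The inhibited factors thus differed by well under 2-fold at the level of their RNA.

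The cytoplasmic actins were the most abundant members. Actb had 33101, 35292 and 32003 normalized counts with CCG-1423 and 81216, 80400.2 and 78926 with vismodegib, and its log2 difference was -1.26 ± 0.04. For Actg1 the values were 31145, 38195 and 35233 against 121201, 124065 and 122284 (-1.82 ± 0.06), and both genes have near-identical copies in the genome among which the authors' counting could have split reads. Tropomyosins, which wind along actin filaments, were lower by more. Tpm1 had 3811, 4046 and 4174 normalized counts with CCG-1423 and 15633, 15846 and 15786 with vismodegib (-1.97 ± 0.03), and Tpm2 1303, 1353 and 1410.3 and 5691, 5587 and 5591 (-2.05 ± 0.03). Myl9, a light chain of myosin whose promoter also holds a CArG box, had the largest difference of the set at a low level. It had 1.12, 2.6 and 4.64 normalized counts with CCG-1423, 24.6, 22.2 and 18.4 with vismodegib and 25.3, 41.5 and 41.9 with vehicle (-2.69 ± 0.36), and a value of 3 reads corresponds to 2.60 to 3.36 normalized counts in these libraries.

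Genes that cut, cap or cross-link actin followed in the same direction. Gsn, which encodes the severing protein gelsolin, was lower with CCG-1423 (-1.41 ± 0.04), as were the actin-disassembly factor Wdr1 (-1.09 ± 0.03) and the cross-linker Actn4 (-1.08 ± 0.03). Vcl, which encodes vinculin and has a CArG box in its promoter, was lower by less than 2-fold (-0.54 ± 0.03), and so were Myh9 (-0.91 ± 0.05), Cald1 (-0.56 ± 0.03), Tagln2 (-0.57 ± 0.03) and Cfl1 (-0.47 ± 0.04). The direction was not shared by all. Zyx, which encodes the focal adhesion protein zyxin, had 16913, 17545 and 17769.9 normalized counts with CCG-1423 and 10832, 10883 and 10978 with vismodegib (0.68 ± 0.03). Flna (0.25 ± 0.03) and Flnc (0.44 ± 0.06), both filamins, were higher as well, and Csrp1 (0.06 ± 0.05, adjusted p = 0.25) did not pass. Of 28 listed actin and actin-binding genes 22 were tested, 17 were lower and 4 higher, and 8 lower and 0 higher ones differed at least 2-fold. Their median log2 difference was -0.55. Over all genes tested 42.4% were lower and 15.1% at least 2-fold lower. The 12 housekeeping genes described further on had a median of -0.51, near that of this list, but 0 of them were at least 2-fold lower. The other 6, among them Acta2 and Tagln of smooth muscle, averaged under 9 normalized counts in every group.

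Adhesion and secreted targets were divided, with 4 of 9 tested members higher and 5 lower, beside 42.4% of all genes each way. Thbs1, which encodes thrombospondin-1, had 18687, 20134 and 18718 normalized counts with CCG-1423 and 44850.2, 45605 and 43312 with vismodegib (-1.22 ± 0.04). Ctgf, a matricellular protein that YAP also switches on, was lower (-1.01 ± 0.10) and was below vehicle with both compounds, by -1.58 ± 0.10 with CCG-1423 and -0.56 ± 0.10 with vismodegib. Its relative Cyr61 was higher (0.26 ± 0.08) with groups that overlap. Mical2, an enzyme that oxidises actin, was the 1 member of this group that was at least 2-fold higher (1.24 ± 0.06). Fhl2, a LIM-domain protein whose promoter holds a CArG box, had 2689, 3407 and 3242 normalized counts with CCG-1423 and 2739.9, 2652 and 2638 with vismodegib, with groups that overlap (0.21 ± 0.06). Among the listed members with a CArG box in the window, Actg1, Vcl, Myl9, Lima1 (-0.68) and Cnn2 (-0.18) were lower. Fhl2 and Srf were higher, both by little. The listing of windows left out a chromosome, so it does not hold every target counted above. These directions are those of the listed windows only. A target left out could differ either way and by 2-fold or more.

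Immediate early genes were higher with CCG-1423 in 7 of 9 tested members, 5 of them at least 2-fold, beside 42.4% and 12.2% of all genes. Egr1 had 1322, 1523 and 1485 normalized counts with CCG-1423 and 551, 548 and 555 with vismodegib (1.38 ± 0.06), with vehicle at 641, 636 and 576. The same order held for Nr4a1 (1.94 ± 0.12), Fosb (1.70 ± 0.15), Ier2 (1.56 ± 0.04) and Fos (1.02 ± 0.19), which encode transcription regulators switched on within minutes of a stimulus. Egr3 went the other way, at 4.47, 2.6 and 5.56 and 11.2, 19.3 and 23.5 normalized counts (-1.85 ± 0.34), and Mcl1, an anti-apoptotic gene, was lower by less (-0.44 ± 0.03). The ternary complex factors differed in both directions, with Elk1 at -0.49 ± 0.05, Elk3 at 0.33 ± 0.04 and Elk4 at 0.58 ± 0.09. Over the whole SRF and MRTF list, 54 genes were listed and 45 tested, 18 were higher and 26 lower, and 6 higher and 11 lower ones differed at least 2-fold. Beside them, 42.4% of all genes were higher, 42.4% lower, 12.2% at least 2-fold higher and 15.1% at least 2-fold lower.

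The integrated stress response was the named pathway with the largest single difference, that of Nupr1. Of 40 listed genes 39 were tested, and 35 were higher with CCG-1423 and 4 lower, beside 42.4% of all genes each way. Of the 39, 28 were at least 2-fold higher, beside 12.2% of all genes. The median log2 difference of the list was 1.66. Nupr1, a small chromatin protein of the stress response, had 11025, 14715 and 14495 normalized counts with CCG-1423, 161, 143 and 144 with vismodegib and 172, 154 and 162 with vehicle (6.47 ± 0.09). Trib3, a pseudokinase that restrains Atf4 and Akt, had 18206, 18789.7 and 18741 with CCG-1423 and 706, 676 and 638 with vismodegib (4.79 ± 0.07). The gap between the groups was many times the spread within them for both genes.

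The secreted stress proteins of the list came up from very low levels. Gdf15, a cytokine of the stress response, had 92.7, 121 and 115 normalized counts with CCG-1423 and 1.12, 1.93 and 0 with vismodegib (5.90 ± 0.44). It passed the filter through its CCG-1423 values alone, so it could only come out higher. Stc2, a secreted glycoprotein, had 139, 158 and 152 and 8.95, 1.93 and 3.07 (4.94 ± 0.39), and Fgf21, a metabolic hormone whose promoter holds a C/EBP-ATF element, had 363, 460.3 and 473 and 21.2, 38.7 and 30.7 (3.83 ± 0.19). Ppp1r15a, which encodes GADD34 and reverses the phosphorylation of eIF2, had 10623, 14454 and 13902 with CCG-1423 and 961, 1008 and 931 with vismodegib (3.73 ± 0.08). The regulators Atf4 (2.16 ± 0.03), Ddit3 (3.62 ± 0.04), which encodes CHOP, and Atf3 (3.34 ± 0.09) and the glutathione-degrading enzyme Chac1 (1.94 ± 0.08) were higher too. These 4 genes and Asns were named for their place in the pathway or for their promoters, after their values were seen.

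Enzymes and carriers of amino acids were higher in 16 of 17 tested members, beside 42.4% of all genes. Asns, which makes asparagine, had 23924, 24994 and 24874 normalized counts with CCG-1423 and 7805, 7243 and 7708 with vismodegib (1.70 ± 0.04). The 4 lower members of the whole list were Cbs of this group, Slc7a11 and the lipoprotein receptor Vldlr (-0.47 ± 0.03) of the effectors, and the eIF2 kinase Eif2ak1 (-0.26 ± 0.03), of which Vldlr and Eif2ak1 were named after their values were seen. Cbs and Slc7a11, which serve the supply of cysteine, were at least 2-fold lower. Cbs, which starts the synthesis of cysteine from homocysteine, had 101, 119 and 92.7 with CCG-1423, 837, 904 and 831 with vismodegib and 1180.3, 1241 and 1064 with vehicle (-3.03 ± 0.09). Slc7a11, the cystine carrier, had 4957, 4328 and 4428 with CCG-1423, 16191, 15777 and 15662 with vismodegib and 11665, 11958 and 12163 with vehicle (-1.80 ± 0.04), although its promoter window holds 2 C/EBP-ATF elements. Vismodegib was the highest of the 3 groups for Slc7a11, at 0.41 ± 0.04 against vehicle (adjusted p = 1.6e-05), and below vehicle for Cbs, at -0.44 ± 0.09 (adjusted p = 0.007).

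Cytosolic aminoacyl tRNA synthetase genes, which charge tRNAs with amino acids, were higher with CCG-1423 in 18 of 20 members, 7 at least 2-fold, with a median of 0.86. Beside the lists of this paragraph, 42.4% of all genes were higher, 42.4% lower and 12.2% at least 2-fold higher. Mitochondrial ones were not, with 6 of 17 higher and 8 lower. The 1 mitochondrial member that was at least 2-fold higher was Lars2 (2.60 ± 0.14), which went with Rn45s as described above. Of 22 unfolded protein response genes tested 17 were higher, among them the regulated degradation gene Herpud1 (2.55 ± 0.05) and the chaperone Hspa5 (1.58 ± 0.03), with 5 at least 2-fold and a median of 0.38. Heat shock genes had a median of -0.33, with 10 of 15 lower, among them Hspb1 (-2.12 ± 0.04), and Cryab (2.75 ± 0.07) against that direction. The metallothionein Mt2, which binds zinc, had 147016, 164215 and 156690.00 normalized counts with CCG-1423 and 22803, 22911 and 22196 with vismodegib (2.78 ± 0.04).

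**Figure D5:**
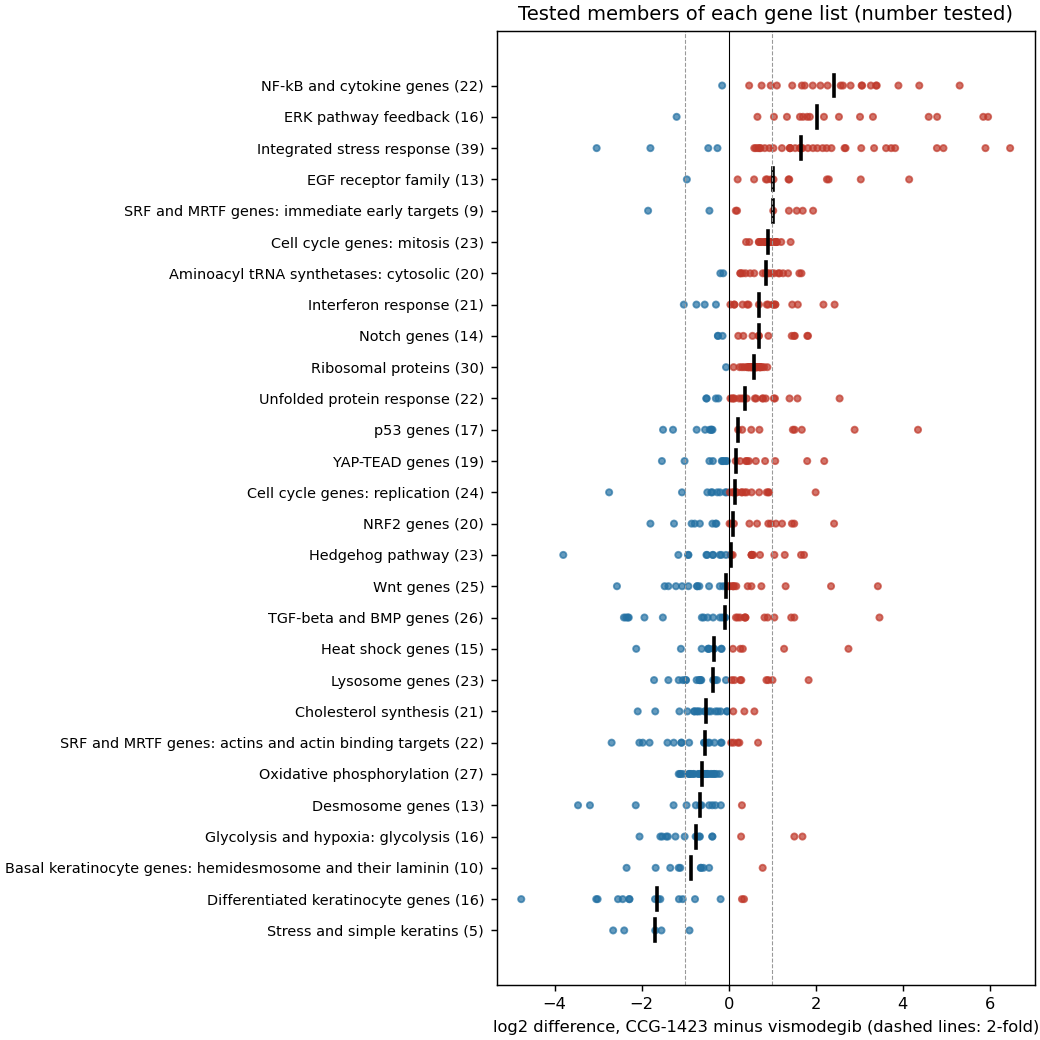
Log2 difference (CCG-1423 minus vismodegib) of the tested members of 28 gene groups, ordered by their median (black bar); each point is 1 gene, red above 0 and blue below. NF-kB and cytokine genes have the highest median (2.42) and stress and simple keratins the lowest (-1.69), while Hedgehog genes spread on both sides of 0.

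Feedback genes of the ERK pathway, which growth factor signalling switches on and which then restrain it, were higher with CCG-1423 in 15 of 16 members, 14 of them at least 2-fold, with a median of 2.03. Over all genes tested 42.4% were higher and 12.2% at least 2-fold higher. Etv5, an ETS transcription factor, had 2556, 2292 and 2420.01 normalized counts with CCG-1423 and 53.7, 32.9 and 38.8 with vismodegib (5.85 ± 0.16), with vehicle at 57.2, 40.4 and 50.9. Spry4, a Sprouty inhibitor of receptor signalling, had 102, 94.3 and 102 and 1.12, 0.967 and 0 (5.96 ± 0.46). Vismodegib and vehicle were at or near the level of single reads there, and all CCG-1423 libraries were far above it. Spry4 thus passed the filter through its CCG-1423 values alone and could only come out higher. Etv4 (4.79 ± 0.11), the phosphatases Dusp4 (4.60 ± 0.14) and Dusp6 (2.53 ± 0.09), Spry1 (3.02 ± 0.13) and Fosl1 (3.32 ± 0.20) were higher, and Spred3 (-1.20 ± 0.19) was the 1 lower member. Ligands of the EGF receptor were higher as well, with Ereg (4.15 ± 0.24) and Egf (3.04 ± 0.33) ahead, in a list with 11 of 13 tested members higher and Erbb2 lower (-0.96 ± 0.03).

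NF-kB and cytokine genes had the highest median of the lists, 2.42, with 21 of 22 tested members higher and 18 at least 2-fold. Over all genes tested 42.4% were higher and 12.2% at least 2-fold higher. Members near 0 with vismodegib and vehicle could pass the filter only through CCG-1423, and so only as higher. The counts and the median of this list can be partly set by that. Ccl20, a chemokine of epithelia, had 273, 297 and 363 normalized counts with CCG-1423 and 12.3, 2.9 and 8.17 with vismodegib (5.31 ± 0.33). Icam1, an adhesion molecule for leukocytes, had 616, 756 and 860.4 and 31.3, 31.9 and 40.9 (4.38 ± 0.15). The cytokine Tnf (3.90 ± 0.26), the growth factor Csf1 (3.40 ± 0.12), the chemokine Cxcl1 (3.39 ± 0.23) and the feedback inhibitor Tnfaip3 (3.27 ± 0.12) were higher too, and Nfkbiz (-0.15 ± 0.12, adjusted p = 0.24) did not pass, except without CCG-1423 replicate 1 (-0.33, adjusted p = 0.0010). The 7 other listed cytokines and receptors stayed under the filter, among them Il6, Il1b and Csf3, each below 7 normalized counts on average in every group. Interferon response genes were mixed, with 11 of 21 higher, 3 lower and 7 not passing, beside 42.4% of all genes each way. The transcription factor Irf1 was among the higher ones (2.18 ± 0.08).

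Of 22 tested basal keratinocyte genes 14 were lower with CCG-1423, 8 of them at least 2-fold, and 8 were higher, 4 of them at least 2-fold. Among all genes 42.4% went each way, with 15.1% at least 2-fold lower and 12.2% at least 2-fold higher. The largest difference was that of Krt15, a keratin of follicle stem cells and basal cells. It had 27.9, 34.6 and 31.5 normalized counts with CCG-1423, 2061, 2166 and 2135 with vismodegib and 2324, 2441 and 2708 with vehicle (-6.04 ± 0.08). Krt5 and Krt14, the keratin pair of basal cells, were at 96655, 100228 and 96352 against 544321, 556598 and 561718 (-2.50 ± 0.05, or -3.89 with quantile normalization) and at 88182, 85216 and 84659 against 461715, 466089 and 466954 (-2.43 ± 0.05). The basal keratins and regulators did not share a direction, with 7 of 12 tested members higher, 4 at least 2-fold, and 5 lower, 3 at least 2-fold, and with a median of 0.33. Trp63, the master regulator of basal keratinocytes, was lower by less than 2-fold (-0.94 ± 0.03), and the transcription factors Sox15 (1.61 ± 0.28), Tfap2c (1.48 ± 0.06), Irx2 (1.32 ± 0.07) and Klf5 (1.26 ± 0.03) were higher. Of the 10 genes of hemidesmosomes and their laminin, which anchor basal cells to the basement membrane, 9 were lower and 5 at least 2-fold, among them Dst (-2.35 ± 0.06) and Col17a1 (-1.68 ± 0.05), while Itga3 was higher (0.78 ± 0.03).

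Differentiation genes were not higher in place of the basal ones. Of 16 tested differentiated keratinocyte genes 13 were lower and 12 at least 2-fold, with a median of -1.66, beside 42.4% and 15.1% of all genes. Sprr2h, of a family of cornified envelope proteins with similar sequences, was lower (-4.77 ± 0.23), as were Krtdap (-3.01 ± 0.23), the skin protease Klk7 (-2.28 ± 0.31) and the envelope protein Ivl (-2.28 ± 0.20). Cdsn was higher by little (0.31 ± 0.08), and Lor (0.35 ± 0.16, adjusted p = 0.053) and Casp14 (-0.19 ± 0.22, adjusted p = 0.44) did not pass. Desmosome genes were lower in 12 of 13 tested members, 4 at least 2-fold, with Dsc1 (-3.46 ± 0.16) and Dsg1a (-3.19 ± 0.07), which has a close copy in Dsg1b (-2.14 ± 0.08), the largest and Pkp2 (0.30 ± 0.09) on the other side. Krt6a, a keratin of stressed and wounded epidermis, had 17642, 15744 and 16310.5 normalized counts with CCG-1423 and 102065, 103143 and 107547 with vismodegib (-2.65 ± 0.04), and all 5 tested stress and simple keratins were lower.

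Genes of mitosis were higher with CCG-1423 in 23 of 23 members, 7 of them at least 2-fold, with a median of 0.90. Over all genes tested 42.4% were higher and 12.2% at least 2-fold higher. Aurka, a mitotic kinase, had 3261, 3866 and 3662 normalized counts with CCG-1423 and 1371, 1275 and 1365 with vismodegib (1.42 ± 0.06). Replication genes had no common direction, with 13 of 24 higher and 6 lower, beside 42.4% of all genes each way. Cdt1, which licenses replication origins, was higher (2.00 ± 0.07), and Rrm2, which makes deoxyribonucleotides, had 935, 905 and 937 with CCG-1423, 6044, 6127 and 6507 with vismodegib and 4988, 4829.6 and 4779.5 with vehicle (-2.75 ± 0.04).

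Metabolic genes were mostly lower, and so were genes commonly used as controls. Of 12 such housekeeping genes, 2 of which are also members of the metabolic lists, 8 were lower with CCG-1423, none at least 2-fold, and 4 higher, 2 at least 2-fold, with a median of -0.51, or -0.29 with quantile normalization. All 27 oxidative phosphorylation genes were lower with CCG-1423, by 0.21 to 1.15 on the log2 scale, and 4 of them at least 2-fold, with a median of -0.61. Among all genes 42.4% were lower and 15.1% at least 2-fold lower. Of 16 glycolysis genes 13 were lower, with Aldoc (-2.05 ± 0.05) ahead, and Hk2 (1.70 ± 0.03) and Eno2 (1.51 ± 0.16) were higher. Vegfa, an angiogenic growth factor listed with hypoxia genes, was also higher (2.39 ± 0.05). Cholesterol synthesis genes were lower in 16 of 21 members with a median of -0.53. The medians of the oxidative phosphorylation and cholesterol lists thus lie near that of the control genes. Ribosomal protein genes were higher in 29 of 30 members with a median of 0.57, beside 42.4% of all genes, and none reached 2-fold.

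The largest single differences lay outside these pathways for the most part. Slc6a12, a carrier of betaine, had 426, 618 and 593 normalized counts with CCG-1423 and 0 reads in every vismodegib library, which makes it at least 163-fold higher when set against 3 reads in the shallowest of them. Prss35, a secreted relative of serine proteases, had 1062, 1403 and 1483 and 4.47, 2.9 and 4.09 (8.09 ± 0.27). Btg4, of a family of antiproliferative proteins, had 352, 308 and 350.5 and 0, 0.967 and 2.04 (7.54 ± 0.36). Spp1, which encodes osteopontin, had a log2 difference of 6.08 ± 0.15, the carbonic anhydrase Car6 5.86 ± 0.19 and the water channel Aqp1 5.75 ± 0.51. Plekhs1 (5.98 ± 0.57), Cox6a2 (5.37 ± 0.36), a muscle form of a cytochrome oxidase subunit, and the sialyltransferase St3gal6 (5.12 ± 0.17) complete the 15 largest with Nupr1, Spry4, Gdf15, Etv5, Slco4a1 and Ccl20. Genes with reads under CCG-1423 and none under vismodegib also include Accsl (at least 27.2-fold), Akr1b3 (at least 12.9-fold), AI467606 (at least 16.4-fold) and BC018473 (at least 7.16-fold). Those genes, Slc6a12, Prss35, Btg4, Plekhs1, Aqp1 and Cox6a2 passed the filter through their CCG-1423 values alone. They could therefore only come out higher.

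On the lower side Dio2, which activates thyroid hormone, had 1.12, 0 and 0.927 normalized counts with CCG-1423, 361, 384 and 404 with vismodegib and 202, 282 and 250.1 with vehicle (-7.91 ± 0.24). Prlr, the prolactin receptor, had 5.59, 3.46 and 9.27, 586, 677 and 653 and 296, 301 and 349 (-6.57 ± 0.21). In both genes the vismodegib libraries lay above all vehicle libraries, and for Prlr that difference passed (1.02 ± 0.21, adjusted p = 0.01) while for Dio2 it did not (0.66 ± 0.24, adjusted p = 0.14). Fmod, which encodes a collagen-binding proteoglycan, was lower (-5.67 ± 0.09), as were the stem cell receptor Lgr6 (-5.30 ± 0.16), the guidance cue Sema3d (-5.27 ± 0.11) and the desmosomal cadherin of hair, Dsg4 (-5.55 ± 0.21). Kcna4 (-6.00 ± 0.30), a potassium channel, Npbwr1 (-5.14 ± 0.26), a neuropeptide receptor, Gja3 (-4.76 ± 0.26), a connexin, Tmem44 (-5.53 ± 0.16), the hair keratin Krt84 (-5.07 ± 0.13) and Pcdhb16 (-4.84 ± 0.19), a protocadherin, complete the 15 with Krt15, Ucp2 and Sprr2h. Kcnc4, another potassium channel, had 0 reads in every CCG-1423 library and was at least 16.4-fold lower. Genes near 0 with CCG-1423, such as Dio2 and Kcnc4, passed the filter only through the other groups, so they could not come out higher.

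For some of these genes the vismodegib libraries also lay away from vehicle. Ucp2, a mitochondrial carrier, had 201, 218 and 218 normalized counts with CCG-1423, 6425, 7009 and 6790.3 with vismodegib and 14392, 14175 and 13693 with vehicle, so that both compounds were below vehicle and CCG-1423 by far more. Its log2 difference was -4.98 ± 0.04 between the compounds, -6.05 ± 0.04 for CCG-1423 and -1.06 ± 0.04 for vismodegib against vehicle. Slco4a1, an organic anion carrier, had 2758, 3997 and 3842, 89.5, 58 and 82.8 and 184, 181 and 208 in the same order. There the compounds lay on opposite sides of vehicle, at 4.19 ± 0.15 and -1.33 ± 0.15. Ptgs2, which makes prostaglandins and belongs to the NF-kB list, did the same with 7744, 8985 and 9370.3, 1401, 1403 and 1403 and 2984, 3037 and 3029 normalized counts, and its difference between the compounds (2.63 ± 0.05) was larger than that against vehicle (1.52 ± 0.05). Slco4a1 and Ptgs2 were picked out for this pattern after their values were seen.

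Some abundant genes differed hardly at all. The smallest differences among genes with a mean of at least 1000 normalized counts were those of Pde6d, Taf1, Eif4e, Helz2 and Cript. Eif4e, which binds the cap of messenger RNA, had 3039, 3267 and 3205 normalized counts with CCG-1423 and 3174, 3089 and 3244 with vismodegib (0.00 ± 0.04). Taf1, a subunit of the basal transcription machinery, had 1210.2, 1176 and 1091 and 1145, 1175 and 1155 (-0.00 ± 0.05). The SE sets how far the compounds could still differ for these genes.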

How the data were processed

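RNA of ASZ001 cells was sequenced in 3 libraries per treatment. The signal values are normalized counts per gene symbol deposited by the authors, and each column is whole reads divided by 1 size factor: 100% of values became whole reads within 0.01 read. Per the submitters' processing notes, which give no role or version, TopHat, DESeq and the build mm9 belong to the processing. Counter, annotation, strandedness and filters were not given in the sources used here. The table lists 24015 names, 24 of them turned into dates, and 23848 matched a symbol or synonym in the reference.

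Genes with a value of at least 10 in at least 3 libraries were tested on log2(normalized count + 1) by limma 3.58.1 (R 4.3.3), so folds of low genes are understated. A gene near 0 in all libraries but those of 1 compound passes only through that compound, so the filter set its direction. All 9 libraries entered 1 fit with a variance trend. P-values were 2-sided, adjusted by Benjamini-Hochberg over the 12775 genes, with a threshold of 0.05. The test was checked on simulated data in which few genes differed, and it found 98.5% of 2-fold differences with 4 false calls. Most genes passed in the real data, so that check does not bear on the share passing or on the split of directions. Where a group had 0 reads, folds are bounds set against 3 reads, which cover counting error only.

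Named genes are the 15 largest differences per direction (mean at least 50, groups not overlapping, no Gm, Rik, Mir or Snor names), any Hedgehog and SRF members, up to 6 of largest difference per other list with up to 2 against its direction and those not passing, the 5 smallest differences, and genes with 0 reads under 1 compound. The comparison, its members and all lists were chosen with earlier results of these data known; the gene families and follicle genes in the closing section, and the scaling without Rn45s and Lars2, were chosen after their values were seen. Alternatives were edgeR 4.0.16, DESeq2 1.42.0, pseudocounts of 0.5 and 8, no filter or a mean of at least 50, only the 6 libraries, robust variance, other scalings, a replicate block and leaving out each library.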

Additional observations from a re-analysis of the deposited data

How the results depend on the processing

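The count of genes past the threshold ran from 9715 (only genes with a mean of at least 50) to 11587 (no filter), and that of genes also at least 2-fold apart from 2602 to 4361, under the same 2 settings. Leaving out each library gave 10560 to 10882 and 3429 to 3558. The percent of 2-fold differences that were higher with CCG-1423 was 44.8%. It was 44.4% with edgeR and with TMM scaling, 45.6% with a pseudocount of 8, 48.0% without a filter, 44.3% with a mean of at least 50, 41.5% with total-read scaling, 47.2% with quantile normalization and 49.6% with total-read scaling without Rn45s and Lars2, and leaving out each library gave 44.7% to 45.1%.

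With a replicate block 10788 genes passed and 3492 were at least 2-fold apart. The deviations of same-numbered CCG-1423 and vismodegib libraries correlated at -0.002, -0.04 and 0.003, so no shared deviation was visible. These values cannot say whether same-numbered libraries were made together. The block ended no call on a gene named here. No gene named here that passed reversed under any of the 19 settings in which it was tested, and 18 of the 170 were not tested with a mean of at least 50. Calls were lost for Sox9 and Mkl2, as given above. Among genes that did not pass, Gli2, Nfkbiz, Csnk1a1, Kif7, Csrp1, Lor and Helz2 passed under at least 1 setting. A pseudocount of 8 shrank the differences of low genes such as Spry4 (3.63) and Gdf15 (3.70). Quantile normalization gave 0.38 for Flna. The shallowest library and the level of 1 read limit what can be said of genes near 0, and doses and times are unknown.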

Other observations

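Several gene families recognised by symbol differed between the compounds, and all of them were picked out after their values were seen. Protocadherin beta genes, a cluster of neuronal and epithelial adhesion molecules, were at least 2-fold lower with CCG-1423 in 16 of the 16 members that passed the filter, of 22 listed. Over all genes tested 15.1% were. Their log2 differences ran from -4.84 to -1.64, with a median of -3.32. Pcdhb16 had 4.47, 8.65 and 9.27 normalized counts with CCG-1423 and 254, 224 and 223 with vismodegib. Members as low as this with CCG-1423 passed the filter only through the other groups and could only come out lower. The count and median of this family can be partly set by that. The family members lie next to each other and are similar in sequence, so they are not independent and reads may have been split among them. Hair follicle genes were at least 2-fold lower in 9 of 10 tested members, beside 15.1% of all genes. Sostdc1, a secreted inhibitor of BMP and Wnt signalling, had 135, 129.8 and 128 normalized counts with CCG-1423, 2902, 3122 and 2883 with vismodegib and 3402, 3434 and 3410.1 with vehicle (-4.49 ± 0.04), and the transcription factors Tbx1 (-3.95 ± 0.11), Hoxc13 (-2.69 ± 0.04) and Foxn1 (-1.94 ± 0.11) were lower as well, while Lhx2 (0.43 ± 0.31, adjusted p = 0.21) did not pass.

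Small nucleolar RNA host genes were higher with CCG-1423 in 9 of 11 tested members, 6 at least 2-fold, beside 42.4% and 12.2% of all genes. Snhg12 had 6502, 7203 and 7462 normalized counts with CCG-1423, 284, 245 and 258 with vismodegib and 283, 299 and 272 with vehicle (4.75 ± 0.07), and Snhg5 1476, 1669.9 and 1608, 163, 113 and 129.8 and 99.6, 105 and 109 (3.55 ± 0.11). Replication-dependent histone genes were higher in 23 of 29 tested members and lower in 0, beside 42.4% of all genes each way. Hist1h1e (4.19 ± 0.18) had the largest difference. The other 39 of 68 listed were under the filter. Most members are near the level of single reads, near-identical to each other, and lower in the libraries in which Rn45s was lower. Members near 0 with vismodegib passed the filter only through the other groups, so these counts can be partly set by that. The part of that library difference in the histone values was not tested. Proteasome subunit genes were lower in 27 of 37 tested members, beside 42.4% of all genes, with a median of -0.32, but 1 was at least 2-fold lower and 1 at least 2-fold higher, and the median of the control genes was -0.51.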
